A study of Homo sapiens with 288 samples.

Results

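Sialomucins and endothelial surface glycoproteins are described here gene by gene and cell by cell. The 7 genes named, CD34, PODXL, PODXL2, EMCN, CD164, MCAM and ICAM2, were chosen by name for this class of protein, and 6 of them had a row among the 17492 protein-coding genes. ICAM2 was not analysed here. The cells came from the H1 human embryonic stem cell line and were captured singly on the Fluidigm C1 microfluidic system, in which full-length cDNA is made from each cell. EC, the endothelial cells, were made by growing H1 in E8 medium with BMP4 at 5 ng/ml and Activin A at 25 ng/ml for 2 days, followed by VEGF and WNT for 3 days. TB, the trophoblast-like cells, were made in E7, which is E8 without FGF2, with BMP4 at 50 ng/ml and SB431542, an inhibitor of Activin and TGF-beta receptor signalling. The same 45 EC and 51 TB cDNAs were sequenced in 3 experiments with equalized cDNA input, called EQ, EQ-Vary and EQ-75%, with EC and TB libraries pooled, 96 to a lane. The sources used here name neither separate cultures nor a sort, so each cell type was 1 sample and no test between EC and TB was possible. Values are given with the spread between cells, and all cells share 1 cell line.

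Sialomucins are membrane proteins whose extracellular part carries many O-linked sugar chains capped with sialic acid, which give the cell surface a negative charge. CD34 and podocalyxin (PODXL) belong to the same small family as endoglycan (PODXL2). On the specialised venules of lymph nodes their sulfated, fucosylated sugars are bound by leukocytes, while the unsulfated proteins are mostly described as anti-adhesive. Endomucin (EMCN) and endolyn (CD164) are sialomucins outside that family, endomucin being found mainly on venous and capillary endothelium and endolyn on many cell types. MCAM, also called CD146 or MUC18, is an immunoglobulin-type adhesion molecule of endothelium and pericytes, and ICAM2 is an endothelial ligand of the leukocyte integrin LFA-1.

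Of the 6 genes with a row, 3 were higher in EC, 2 differed by less than 2-fold in mean level, and 1 was at or near a count of 0 in both. The 3 higher in EC were CD34, MCAM and EMCN, the 2 that differed less were CD164 and PODXL, and the last was PODXL2. Counts were divided by each cell's total and multiplied by 1000000 (CPM), and a gene was called higher in a cell type when its mean CPM over cells was at least 2-fold higher there, among genes with a mean of at least 1 CPM in EC or TB. Of 12751 such genes in EQ, 19.7% were called higher in EC and 27.2% higher in TB, so a call by this rule is common. Of the 5 named genes that entered, 3 were called for EC and 0 for TB, with a median log2 EC over TB of 5.09 against -0.08 over all 12751 genes. EQ-Vary gave the same 3, 0 and 2, with 20.1% and 27.3% of 12754 genes called. EQ-75% did so too, with 18.9% and 28.1% of 12704 genes called. All 3 experiments started from 1 set of cDNAs, so they are repeat measurements and not further samples.

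**Figure D1:**
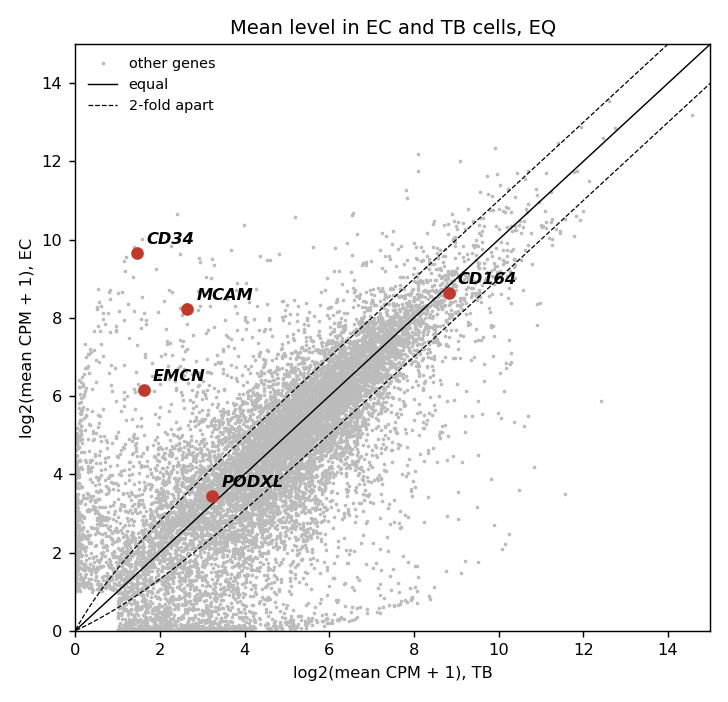
Mean level of every gene that entered the comparison in TB (x axis) and EC (y axis), as log2(mean CPM + 1) over 48 TB and 38 EC cells of EQ. The solid line marks equal means and the dashed lines means 2-fold apart; CD34, MCAM and EMCN lie far above the upper dashed line, while CD164 and PODXL lie between the dashed lines.

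The genomic stretch around the RefSeq start of each gene is shown because 3 of these genes were EC-high, CD164 was high in both cell types and PODXL2 was near 0 in both. The set of RefSeq (GRCh38.p14) promoters used here held 5 of the 6 genes, and PODXL, which had no entry in that set, is named only. The RefSeq start lay 362104 bases inside the GENCODE bounds of EMCN given with its levels, and 4391 bases inside those of MCAM, so these windows describe the RefSeq start and not the outermost annotated one. Each sequence reads 5′ to 3′ on the gene's strand. Capitals mark GGAA, or TTCC where it lies on the other strand, which is the core bound by ETS transcription factors such as ERG and FLI1.
CD34, chr1:207911076-207911375, minus strand: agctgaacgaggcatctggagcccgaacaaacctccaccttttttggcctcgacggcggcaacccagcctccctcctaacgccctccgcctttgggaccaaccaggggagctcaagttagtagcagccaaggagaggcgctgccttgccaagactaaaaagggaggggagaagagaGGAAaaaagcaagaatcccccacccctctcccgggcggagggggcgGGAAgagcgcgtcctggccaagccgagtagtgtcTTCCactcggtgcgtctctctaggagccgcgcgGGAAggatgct
MCAM, chr11:119317081-119317380, minus strand: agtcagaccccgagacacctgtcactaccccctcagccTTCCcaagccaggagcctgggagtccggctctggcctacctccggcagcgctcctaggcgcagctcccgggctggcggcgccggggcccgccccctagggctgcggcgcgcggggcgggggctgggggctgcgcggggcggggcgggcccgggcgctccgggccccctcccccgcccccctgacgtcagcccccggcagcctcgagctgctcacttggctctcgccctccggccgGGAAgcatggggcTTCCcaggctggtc
EMCN, chr4:100517973-100518272, minus strand: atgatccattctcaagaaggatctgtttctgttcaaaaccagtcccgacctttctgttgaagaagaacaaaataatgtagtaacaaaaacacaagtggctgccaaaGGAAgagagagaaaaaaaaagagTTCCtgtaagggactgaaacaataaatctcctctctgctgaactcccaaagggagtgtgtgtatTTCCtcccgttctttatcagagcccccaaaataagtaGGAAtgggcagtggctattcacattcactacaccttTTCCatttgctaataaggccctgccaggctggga
CD164, chr6:109382418-109382717, minus strand: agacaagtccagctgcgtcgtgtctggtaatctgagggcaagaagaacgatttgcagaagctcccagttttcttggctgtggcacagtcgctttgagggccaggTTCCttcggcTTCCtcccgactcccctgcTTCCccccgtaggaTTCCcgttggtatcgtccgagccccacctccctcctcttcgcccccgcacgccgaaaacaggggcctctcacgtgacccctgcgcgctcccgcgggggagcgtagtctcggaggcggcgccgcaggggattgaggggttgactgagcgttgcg
PODXL2, chr3:127628935-127629234, plus strand: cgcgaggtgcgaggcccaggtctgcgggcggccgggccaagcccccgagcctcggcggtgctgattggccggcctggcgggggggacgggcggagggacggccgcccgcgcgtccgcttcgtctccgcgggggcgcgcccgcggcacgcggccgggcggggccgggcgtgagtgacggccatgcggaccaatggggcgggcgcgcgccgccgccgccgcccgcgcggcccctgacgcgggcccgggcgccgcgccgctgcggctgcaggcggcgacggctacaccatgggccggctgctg
GGAA, searched on both strands, occurred 4 times in the CD34 promoter, 3 times in MCAM, 5 times in EMCN, 4 times in CD164 and 0 times in PODXL2. Among 35093 promoters of the same length 95.5% held at least 1 match, with a median of 3, so the counts in CD34, MCAM and CD164 are close to those of most promoters. The window at the RefSeq start of EMCN had a low share of G and C, with 2 CpG dinucleotides and 42.3% G or C, where the median promoter had 14 CpG and 58.7% G or C, and 10.97% of promoters had fewer CpG. PODXL2 was at the other end, with 57 CpG and 84.0% G or C, and 99.8% of promoters had fewer CpG. MCAM had 29 CpG, CD164 had 26 and CD34 had 19. These matches describe letters in the windows and say nothing of binding.

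In EQ, 38 EC and 48 TB cells passed the study's limits on depth and on the share of counts in the top 50 genes. Total counts were 471593 to 3966801 in EC (median 2025145) and 365570 to 3479240 in TB (median 1968545). The cell labels were checked against marker genes. All 16 endothelial markers were called higher in EC, led by KDR (1600.1 against 4.27 CPM), PECAM1 (1317 against 15.0 CPM) and FLT1 (729 against 8.44 CPM). Of 12 trophoblast markers that entered, 10 were called higher in TB and 2 were called for neither, and KRT18 (1926 against 327 CPM in EC), KRT8 (1259 against 137 CPM) and VTCN1 (1142 against 3.64 CPM) were the most abundant. These calls are on means over cells. EC 15 had the lowest endothelial sum of EC, 626 CPM, against at most 132 CPM in TB. It also had the highest trophoblast sum of EC, 3964 CPM, against 2407 to 12222 CPM in TB. EC 15 was kept in all EC values, with 37.9 CPM of CD34 and 3.99 CPM of CD164.

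CD34 (ENSG00000174059, GRCh38 chromosome 1, 207880972 to 207911402, minus strand) was the gene of the set that separated the cell types most widely. Its level in EC was 10.7 CPM in the lowest cell, 667 CPM in the median cell and 1926 CPM in the highest. In TB it was 0 CPM in the lowest cells, 1.04 CPM in the median cell and 21.9 CPM in the highest. Every EC cell but EC 24, 37 of 38, therefore lay above the highest TB cell. The mean was 809 ± 579 CPM in EC (SD over 38 cells) against 1.77 ± 3.17 CPM in TB (SD over 48 cells), which is 458-fold and place 110 of 12751 genes by fold. All 38 EC cells of EQ-Vary and all 39 of EQ-75% lay above the highest TB cell, and the mean folds there were 582 and 739. The low value of EC 24 came back in each experiment, at 10.7, 9.23 and 7.41 CPM.

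CD34 was still counted in most TB cells, at a few counts per cell. A count of at least 1 was found in 38 of 38 EC cells (100%, 95% Clopper-Pearson interval 90.7 to 100%) and in 38 of 48 TB cells (79.2%, 65.0 to 89.5%), intervals that cover counting error only. With every cell thinned to 1000000 counts, which leaves out 4 EC and 4 TB cells, the expected shares were 100% and 61.4%. The share of cells with a count thus set EC apart from TB much less than the level did. The CD34 count of a TB cell was 2 in the median and 8 at most. Over the 48 TB cells its Spearman's rho with the cell's total count was 0.012. This rho was 0.039 for EMCN, with a median of 2.5 counts, 0.184 for PODXL and 0.321 for MCAM. For CD164, with a median of 709 counts, rho was 0.422. For CD34 it was 0.303 in EQ-Vary, where pooling volumes were varied, and 0.139 in EQ-75%. TB 40, with 21.9 CPM, was the shallowest TB cell that passed, with 8 CD34 counts of 365570, and in EQ-75% the same cell had 1 count of 2009134. TB libraries under 1000000 counts held 5.51 CPM of CD34 when pooled (Poisson interval 2.94 to 9.43, 4 libraries) against 1.17 CPM in the deeper 44 (0.959 to 1.41). TB 40 gave 8 of those 13 counts, and without it the other 3 shallow libraries held 2.51 CPM (0.815 to 5.86). In EQ-Vary, where TB 40 did not pass, the values were 2.49 CPM (1.43 to 4.05, 9 libraries) and 1.06 CPM (0.859 to 1.28, 37 libraries). In EQ-75% they were 1.14 CPM (0.235 to 3.33) and 0.912 CPM (0.720 to 1.14). The difference was thus seen in EQ-Vary without TB 40 and not in EQ-75%. With all libraries and no limit on depth, the fold dropped to 76.5, and it was 605 without TB 40.

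The TB level of CD34 was 0.218% of its EC level. Over the 16 endothelial markers this percentage ran from 0 (CLDN5) to 49.8 (ROBO4, at about 1 CPM in EC), with a median of 0.290, so CD34 lay near the middle of the marker genes. MCAM stood at 1.76% and EMCN at 2.94%.

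**Figure D2:**
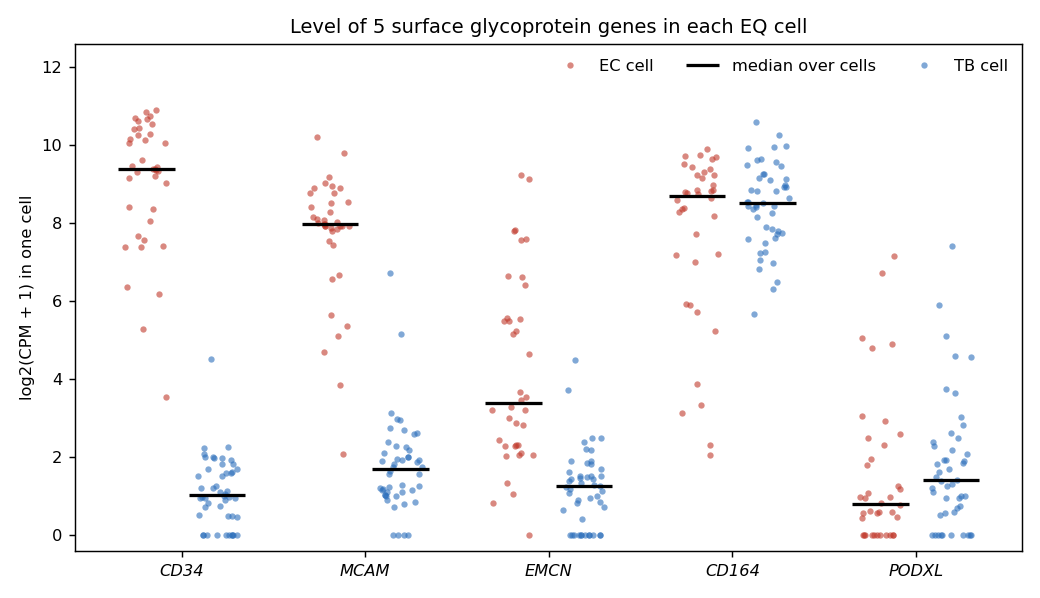
Level of CD34, MCAM, EMCN, CD164 and PODXL in each passing EQ cell as log2(CPM + 1), with 38 EC cells in red, 48 TB cells in blue and a black line at the median over cells. CD34 separates the cell types apart from EC 24 and MCAM apart from 8 EC cells, EMCN spreads from the TB range up to 603 CPM within EC, CD164 overlaps throughout, and most PODXL values are near 0 in both.

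MCAM (ENSG00000076706, GRCh38 chromosome 11, 119308529 to 119321521, minus strand) came next. EC cells ran from 3.26 CPM through a median of 251 CPM to 1197 CPM. TB cells ran from 0 through a median of 2.25 CPM to 104.7 CPM in TB 2, with the next TB cell at 34.9 CPM. Of the 38 EC cells 30 were above TB 2 and 8 were not, so the groups overlapped. Mean levels were 299.9 ± 235 CPM in EC and 5.28 ± 15.5 CPM in TB (SD, n = 38 and 48 cells), which is 56.8-fold. TB 2 was high in each experiment, at 104.7, 105.9 and 120.3 CPM, and its CD34 was 3.00 CPM or lower. Leaving out the highest cell of each type, EC 23 and TB 2, raised the MCAM fold to 87.1. MCAM was detected in 38 of 38 EC and 44 of 48 TB cells, and at 1000000 counts the expected shares were 99.9% and 83.5%.

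EMCN (ENSG00000164035, GRCh38 chromosome 4, 100395341 to 100880126, minus strand) was unevenly distributed within EC. Its EC levels were 0 in the lowest cell, 9.42 CPM in the median cell and 603 CPM in EC 27. In TB the lowest was 0, the median 1.38 CPM and the highest 21.6 CPM in TB 22. Only 16 of 38 EC cells exceeded the highest TB cell, although 37 of 38 (97.4%, 86.2 to 99.9%) had a count. The means were 70.2 ± 138 and 2.06 ± 3.503 CPM, 34.03-fold apart, but the medians were 6.82-fold apart. The 3 highest EC cells held 52.1% of the summed EC level, and 6 of 38 cells were at 100 CPM or more. EC 27 repeated at 587 and 595 CPM, and EC 35 at 564, 613 and 668 CPM across the 3 experiments. With all libraries the EMCN fold was 14.5, and on the scale of mean log2(CPM + 1) it was 7.83.

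CD164 (ENSG00000135535, GRCh38 chromosome 6, 109366514 to 109382467, minus strand) was counted in every passing cell of both types. EC cells had 3.18 CPM at the lowest, 417 CPM in the median and 966 CPM at the highest. TB cells had 50.4, 369.6 and 1544 CPM at the same points. The ranges overlapped almost fully, with 5 TB cells above the highest EC cell. Means of 394 ± 288 CPM in EC and 452 ± 319 CPM in TB gave a ratio of 0.870, well inside the spread between cells. EQ-Vary gave a ratio of 0.865 and EQ-75% gave 0.876. The low tail was on the EC side, where 4 of 38 cells were under 10 CPM and no TB cell was.

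PODXL (ENSG00000128567, GRCh38 chromosome 7, 131500262 to 131558217, minus strand) was low in most cells and high in a few cells of both types. In EC the lowest was 0, the median 0.752 CPM and the highest 141 CPM in EC 29. In TB the lowest was 0, the median 1.66 CPM and the highest 169.9 CPM in TB 9. At least 1 count was found in 27 of 38 EC cells (71.1%, 54.1 to 84.6%) and 38 of 48 TB cells (79.2%, 65.0 to 89.5%). The 3 highest cells held 73.4% of the summed EC level and 64.6% of the summed TB level. Means of 9.96 ± 28.4 and 8.45 ± 25.9 CPM gave a ratio of 1.18. It was 1.87 in EQ-Vary and 0.713 in EQ-75%, and 0.852 on the scale of mean log2(CPM + 1), so no direction can be given. EC 29 was not among the passing cells of EQ-75%, nor TB 9 among those of EQ-Vary, and in the experiments where they passed EC 29 had 141 and 148 CPM and TB 9 had 169.9 and 179.6 CPM.

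PODXL2 (ENSG00000114631, GRCh38 chromosome 3, 127629185 to 127672802, plus strand) had 0 counts over the 38 EC cells and 1 count over the 48 TB cells of EQ. A count of 3 over the group would be 0.0383 CPM in EC and 0.0311 CPM in TB, and both cell types were under it. The 1 count was in TB 3, which had 5 counts in EQ-Vary and 0 in EQ-75%. PODXL2 was not detectable at this depth in EC in any of the 3 experiments.

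The 6 genes differed in how many were present together in a cell. CD34, MCAM and CD164 were each at 10 CPM or more in 33 of 38 EC cells and 0 of 48 TB cells. In EC 18 cells had 4 of the 6 genes at that level, 12 had 3, 5 had 2 and 3 had 5. In TB 36 cells had 1 and 12 cells had 2. The summed level of the 6 genes was 325 to 3150 CPM in EC (median 1632) and 65.0 to 1564 CPM in TB (median 380.1). Within a cell, CD34 had a higher CPM than MCAM in 30 of 38 EC cells.

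Levels of different genes were compared per kilobase of the longest protein-coding transcript. In EC the order of mean CPM per kilobase was CD164 (130.3 ± 95.2), CD34 (101 ± 72.7), MCAM (90.1 ± 70.5), EMCN (17.7 ± 34.8), PODXL (1.66 ± 4.74) and PODXL2 (0). The SD between cells, a spread and not the error of a mean, exceeded the gap between neighbours for CD164, CD34 and MCAM. It also did so for EMCN and PODXL. The order was not tested and is given as a description. By coding length CD34 (700.2 CPM per kilobase) stood above CD164 (666), and MCAM kept place 3. In TB CD164 led with 149.7 ± 106 CPM per kilobase and MCAM came next at 1.59 ± 4.66, so CD164 stood far above the rest.

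Cell-to-cell spread was read against the trend of the coefficient of variation (CV, SD over mean) on the mean over all genes. PODXL had the highest CV of the set in EC, 2.85, and EMCN the highest relative to the trend, with a CV of 1.97, which is 1.33 times the trend at its mean, and 20.1% of 11490 genes lay further above it. This order depends on the scale: by the variance of log2(CPM + 1) over its own trend, EMCN (1.198) was under CD164 (2.49), CD34 (2.35) and MCAM (1.31). CD34 had a CV of 0.716, 1.17 times the trend, with 31.98% of genes further above. CD164 and MCAM lay slightly under the trend at 0.950 and 0.926 times, and PODXL was at 1.05 times. In TB CD164 was at 1.198 times and PODXL at 1.18 times the trend, while CD34 and EMCN lay far under it, at 0.437 and 0.431 times. The CD34 value rests partly on TB 40: without it the CV in TB dropped from 1.796 to 0.846, and in EQ-Vary, where TB 40 did not pass, CD34 was at 0.220 times the trend. The TB cells had a median of 2 counts and at most 8 of CD34, and a median of 2.5 and at most 23 of EMCN.

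**Figure D3:**
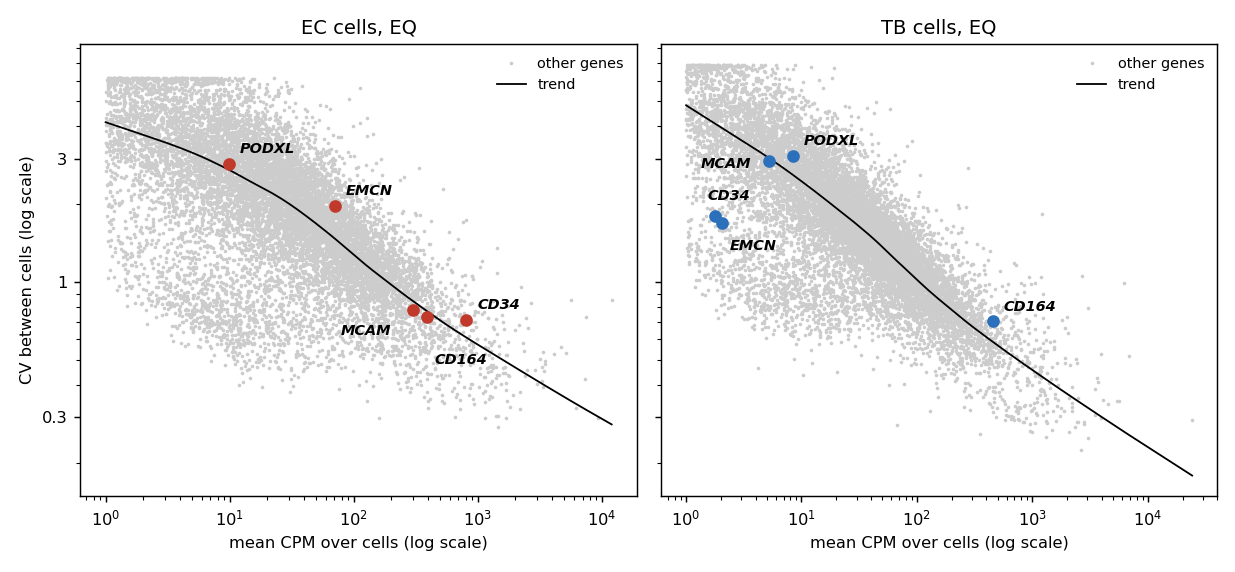
CV between cells against mean CPM for all genes with a mean of at least 1 CPM in EC (left) and TB (right) of EQ, on log scales, with the lowess trend in black. EMCN lies above the trend in EC at 1.33 times, and CD34 and EMCN lie far under it in TB at 0.437 and 0.431 times.

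The repeat measurements were compared cell by cell. In EC, Spearman's rho between the EQ and EQ-Vary levels of the 38 shared cells was 0.995 for CD34, 0.994 for CD164, 0.986 for MCAM, 0.940 for EMCN and 0.649 for PODXL. Between EQ and EQ-75%, over 37 cells, rho was 0.970, 0.932, 0.953, 0.935 and 0.483 in the same order. The EC differences in EMCN from cell to cell therefore came back, including its highest cells. In TB, rho between EQ and EQ-75% over 47 cells was 0.951 for CD164, 0.774 for PODXL, 0.510 for EMCN, 0.488 for MCAM and -0.030 for CD34. The few CD34 counts of TB cells did not rank the cells alike in EQ and EQ-75%. MCAM in TB 2 and EMCN in TB 22, at 21.6, 23.9 and 38.5 CPM, were high in each experiment.

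**Figure D4:**
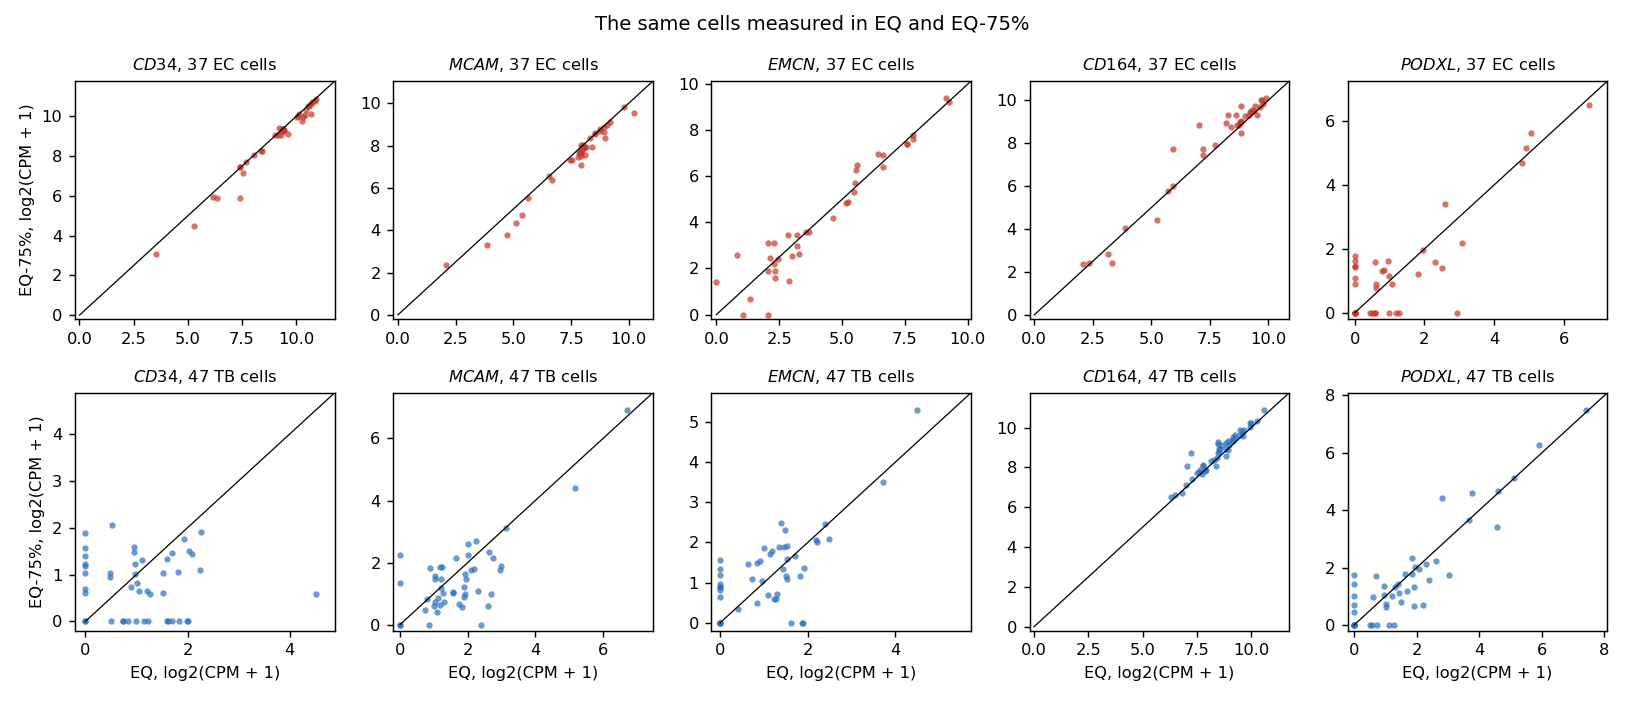
Level of each gene in the same cell in EQ (x axis) and EQ-75% (y axis), as log2(CPM + 1), for 37 EC cells (top, red) and 47 TB cells (bottom, blue), with the line of equal level. CD34, MCAM, EMCN and CD164 follow the line in EC, and CD34 shows no such relation in TB (rho -0.030).

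Small shifts in level between EQ and EQ-75% went in opposite directions for different genes. CD34 in EC was lower in EQ-75% in 29 of 37 cells, with a mean within-cell log2 difference of -0.20 ± 0.31 (SD), and MCAM was lower in 29 of 37 cells, at -0.25 ± 0.29. CD164 was higher in 32 of 37 EC cells, at 0.26 ± 0.53, and in 39 of 47 TB cells, at 0.24 ± 0.31. The median over 11485 genes in EC was -0.12, with 5% of genes under -0.41 and 5% over 0.13, so the CD34 and MCAM shifts were within the usual range of genes and CD164 was past its upper end. In TB the corresponding median was -0.07 and the upper limit 0.14.

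The genes hardly moved together from cell to cell within a cell type. Across the 10 pairs of the 5 detected genes, Spearman's rho over 38 EC cells ran from -0.163 (CD34 and EMCN) to 0.253 (PODXL and CD164). Over 48 TB cells it ran from -0.074 to 0.415, the highest being CD34 and MCAM, for which rho was -0.011 in EQ-75%. Cells share depth and library preparation in these values, and at this size none of the pairs is read as a relation. Against the summed level of the 16 endothelial markers, rho in EC was 0.448 for CD34, 0.262 for CD164, 0.150 for PODXL, 0.099 for MCAM and -0.117 for EMCN. In TB, where that sum had a median of 28.8 CPM, rho was 0.474 for EMCN, 0.425 for CD34 and 0.356 for MCAM. It was 0.050 for PODXL and -0.104 for CD164 there. CD164 in EC had a rho of -0.622 with the summed trophoblast markers, the strongest of the 25 values of this kind in EC, and -0.106 in TB.

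The genes most like each of the set over cells were listed among genes detected in at least 50% of cells. For CD34 they were CALU, an endoplasmic reticulum calcium-binding protein, with a rho of 0.712 over 38 EC cells and 0.707 in EQ-75%, then the surface glycoprotein CD99 (0.590 and 0.563) and MTPN (0.574 and 0.531). The 99th percentile over the 8898 genes screened was 0.376 for CD34. For EMCN they were STRN (0.577), the aryl hydrocarbon receptor AHR (0.556) and the cholesterol synthesis enzyme SQLE (0.554), which had 0.494, 0.413 and 0.501 in EQ-75%. For MCAM they were FAM126B (0.535), UBA2 (0.531) and TAF9B (0.521), with 0.518, 0.356 and 0.208 in EQ-75%. For PODXL, YES1 (0.578), PRDM1 (0.555) and CROT (0.552) had 0.047, 0.084 and 0.338 in EQ-75%, so YES1 and PRDM1 did not come back. For CD164 over 48 TB cells they were the cohesin release factor WAPL (0.521), the mitochondrial channel VDAC2 (0.474) and TBCEL (0.471), with 0.437, 0.302 and 0.404 in EQ-75%. As the highest values of a screen over all those genes, these are descriptions, and those of EQ-75% come from the same cDNA.

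Among 10 other mucin-type surface proteins that entered, 1 was called higher in EC (19.7% over all genes), 3 higher in TB (27.2%) and 6 neither. Their median log2 EC over TB was -0.06. The most abundant were CD99, at 484 CPM in EC and 571 CPM in TB, the hyaluronan receptor CD44, at 277 and 0.591 CPM, and TMEM123, at 145 and 267 CPM. CD44, the gene called for EC, was detected in 35 of 38 EC cells. The 3 called for TB, named after their values were seen, were MUC15 (0.338 against 12.8 CPM), PDPN (11.6 against 35.9 CPM) and EMB (8.48 against 34.7 CPM). SPN, the leukocyte sialomucin CD43, was at 5.28 and 4.03 CPM.

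Of 20 genes listed as binding partners, 14 were called for EC (19.7% over all genes), 4 for TB (27.2%) and 2 for neither. The median log2 was 3.17. The list is not confined to partners of the genes analysed here. It holds ICAM1 and ICAM3, relatives of ICAM2 and both called for EC. It also holds the LFA-1 genes ITGB2, called for EC, and ITGAL, called for neither, which were listed for ICAM2. The most abundant genes of the list were KDR, the VEGF receptor that MCAM binds, RDX (1349 against 444 CPM) and EZR (572 against 1229 CPM). RDX and EZR are linkers of podocalyxin to actin. Among the partners named after their values were seen, moesin (MSN), the related linker, was at 588 CPM in EC and 74.5 CPM in TB, so ezrin was the TB-high linker and moesin and radixin the EC-high ones. The endothelial selectins were called for EC, SELE at 588 against 1.26 CPM and SELP at 31.1 against 0.106 CPM. Of the galectins, LGALS1 was at 286 and 1.62 CPM and LGALS3 at 1.78 and 553 CPM, so they went in opposite directions.

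The genes listed for O-glycosylation showed no common direction, with a median log2 of -0.19. Of 15 O-glycosylation genes 3 were called for EC (19.7% over all genes), 4 for TB (27.2%) and 8 for neither. The most abundant were B4GALT1 (449 against 511 CPM), B4GALT5 (133 against 96.4 CPM) and GALNT1 (127 against 75.2 CPM). The list for sialic acid, fucose and sulfate is not confined to enzymes that build O-linked chains. Of its 15 genes that entered, 8 were called for EC (19.7% over all genes), 3 for TB (27.2%) and 4 for neither. The median log2 was 1.13. The most abundant were the core fucosyltransferase FUT8 (22.4 against 148 CPM), the CMP-sialic acid transporter SLC35A1 (40.2 against 88.5 CPM) and the sialidase NEU1 (47.9 against 64.8 CPM). Among those named after their values were seen, the sialyltransferases ST6GAL1 (54.1 against 3.83 CPM) and ST6GALNAC6 (16.2 against 1.23 CPM) were higher in EC. Some EC calls rested on low levels in few cells. ST6GALNAC2 was at 1.57 against 0.123 CPM, detected in 6 of 38 EC cells, and ST3GAL4 at 3.77 against 0.261 CPM, in 12 of 38. FUT7 and the sulfotransferase CHST4, which finish the leukocyte-binding sugars of lymph node venules, had 0 counts in both cell types, and CHST2 was at 2.15 CPM in EC, detected in 4 of 38 cells, and 0 counts in TB.

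**Figure D5:**
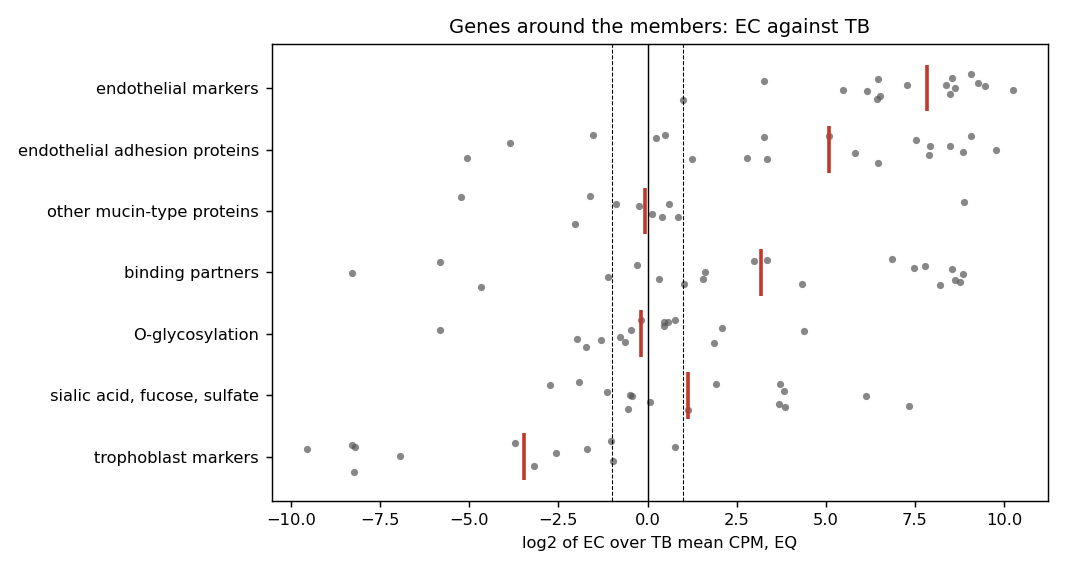
Log2 of EC over TB mean CPM in EQ for the genes of 7 lists that entered the comparison, each point a gene, with the list median in red and dashed lines at 2-fold. Genes with 0 counts in TB are placed against a floor of 3 counts over the TB cells; the endothelial markers all lie at or past the right dashed line, while the O-glycosylation genes lie on both sides of 0.

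The list of adhesion proteins of endothelium holds CD34, MCAM, EMCN and PODXL themselves. Of its 19 genes that entered, 14 were called for EC (19.7% over all genes), 3 for TB (27.2%) and 2 for neither. CD34, MCAM and EMCN are among the 14. Its most abundant genes were PECAM1, JAM3 (921 against 3.78 CPM) and F11R (884 against 373 CPM). VCAM1 had 0 counts in both cell types.

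Other cell types also use some of these genes, so their markers were read beside them. Over all genes, 19.7% were called for EC and 27.2% for TB. CD34 marks blood progenitors as well, and of 4 hematopoietic markers that entered 2 were called for EC, MYB at 28.6 against 0.084 CPM in 25 of 38 EC cells and RUNX1 at 9.53 against 2.94 CPM in 11 of 38. PTPRC, the pan-leukocyte CD45, was at 18.9 and 12.9 CPM, SPI1 had 0 counts in both types, and GATA1 was counted in 1 EC cell. The summed list was 4.02 to 493 CPM in EC and 2.29 to 175 CPM in TB, with a rho of -0.011 with CD34 over EC cells. MCAM is also a pericyte protein, and of 8 mesenchymal and pericyte markers 1, RGS5 (794 against 4.56 CPM), was called for EC, 5 for TB, among them LUM (10.2 against 3042 CPM) and COL3A1 (2.41 against 735 CPM), and 2 for neither. That list summed to 46.3 to 2048 CPM in EC and 651 to 9904 CPM in TB, with a rho of 0.280 with MCAM over EC cells. PODXL carries surface epitopes of pluripotent stem cells, and of 5 pluripotent markers 2 were called for EC, 1 for TB and 2 for neither. That list summed to 113 to 2755 CPM in EC, highest in EC 15, and 75.8 to 1127 CPM in TB, with a median of 413 CPM in both. Its most abundant genes were LIN28A (279 against 287 CPM), DPPA4 (33.6 against 95.5 CPM) and NANOG (83.2 against 33.99 CPM), SOX2 had 0 counts in EC, and the list's rho with PODXL was -0.010 over EC cells and 0.080 over TB cells. The part of these other markers in the EC and TB levels of CD34, MCAM and PODXL was not tested.

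Reads that could fit several genes are a limit of these values. Of the 51-base words in the coding transcripts of CD34, 0.966% also occurred in other protein-coding genes, and for MCAM it was 1.07%, while PODXL, PODXL2, EMCN and CD164 shared none. Words were matched exactly, whereas the mapping allowed 2 mismatches, so stretches that differ by 1 or 2 bases were not counted. Counts that were not whole, as RSEM gives where it divides reads between genes, were found for every gene of the set with EC counts, whether or not it shared such words: in 38 of 38 EC cells for MCAM, 36 of 37 with a value for EMCN, 29 of 30 for PODXL, 33 of 38 for CD34 and 28 of 38 for CD164. In TB the CD34 counts were whole in all 38 cells that had one. MCAM also overlaps CBL on the opposite strand of the genome, and the library kit does not mark strand. With both strands searched, CBL was not among the genes found to share 51-base words with the MCAM transcript.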

How the data were processed

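Single-cell libraries of 45 EC and 51 TB cells were each sequenced in 3 experiments (288 libraries). The authors trimmed reads to 51 bases, mapped them with Bowtie 1.2.3 (2 mismatches allowed) to the Ensembl protein-coding genes of GRCh38, and deposited expected counts per gene and cell estimated by RSEM 1.2.31. Base calling used CASAVA 1.8.2 per the submitters' processing notes. The Ensembl release is not given in the sources used here. All count columns were matched to a labelled sample, and 0 were left over.

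Following the study's methods, expected counts were rounded, and cells with a log10 total under 5.4 or over 31% of counts in the top 50 genes were left out, leaving 38 EC and 48 TB cells in EQ, 38 and 46 in EQ-Vary and 39 and 50 in EQ-75%. Doublets were not called here; cells whose images showed doublets had been removed before the cDNA was reused. Counts were divided by the cell's total and scaled to CPM. Depth sets the precision: 3 counts over the 38 EC cells of EQ equal 0.0383 CPM. The groups were the label's cell type within each experiment, each 1 sample, so no test, p-value or standard error was computed. SD is over cells, and intervals are exact Poisson (summed counts) or Clopper-Pearson (shares) at 95%. The genes and lists were chosen with earlier results of these data known. The values of 1 list gene are not reported here. Genes named were the set itself, for each one detected in at least 50% of cells the 3 genes with the highest Spearman's rho in the cell type where it is higher, and the 3 genes of each list with the highest mean CPM. Trends were fitted with lowess (span 0.3). Gene positions and lengths came from GENCODE annotation on GRCh38, promoters from RefSeq. The fold call was tested on simulated counts with planted changes, and thinning by random draws from the counts of a real cell. The spread trend was fitted to simulated counts with no planted change in spread. Python 3.11.15, numpy 2.4.6, pandas 2.3.3, scipy 1.17.1, statsmodels 0.14.6, R 4.3.3 and scran 1.30.0 (alternative size factors) were used. Other alternatives changed the cells, the scale, the filter, the counting limit and the experiment.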

Additional observations from a re-analysis of the deposited data

Results flagged for a closer look

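The 10 EQ libraries left out for depth or for the share of their top 50 genes entered no comparison, and counts of the set above the floor of 3 were found in them. In the 7 EC libraries, with totals of 11418 to 336862, pooled levels were 137 CPM for CD34, 204 CPM for MCAM, 61.1 CPM for CD164, 17.9 CPM for EMCN and 6.32 CPM for PODXL. In the 3 TB libraries, with totals of 8575 to 45821, pooled levels were 179.6 CPM for CD164 and 89.8 CPM for CD34, the latter from 6 counts of 66809 (Poisson interval 32.96 to 195 CPM).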

How the results depend on the processing

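CD34, MCAM and EMCN stayed the 3 genes at least 2-fold higher in EC, with 0 higher in TB, under each alternative run: scran size factors, all cells, cells passing in all 3 experiments, summed counts, mean log2(CPM + 1), unrounded counts, without the highest cell of each type, EQ-Vary, EQ-75% and, chosen after seeing the data, without TB 40. Of 269 alternative values, 238 stayed within the limit set for their kind, 31 moved past it and 0 called folds changed sign. The limit was the spread between cells for folds and repeat ratios, and the interval for detection. It was a fixed ratio for squared CV and for shares and counts of genes. For rho it was a margin set by the number of cells, and places had to be equal. The limit for folds is wide: CD34 at 76.5-fold against 458 and EMCN at 7.83-fold against 34.03 both stayed within it. At a fold of 4, 10.8% of genes were called for EC and 16.02% for TB. With a count of at least 5 instead of 1, detection was 23.7% for PODXL in EC, and in TB 39.6% for PODXL, 39.6% for MCAM, 20.8% for CD34, 20.8% for EMCN and 0% for PODXL2, which was also 0% in EQ-75%; thinned to 1000000 counts, CD34 in TB was 61.4%. Squared CV over the trend moved with the variance of log2(CPM + 1) to 2.35 for CD34, 2.49 for CD164 and 1.31 for MCAM in EC and to 0.650 for PODXL in TB, and to 0.473 for PODXL in TB of EQ-Vary, where TB 9 did not pass; EMCN in EC was at 1.198 by that variance. In TB, CD34 moved from 0.191 to 0.0483 in EQ-Vary, EMCN from 0.186 to 0.302 by that variance and 0.336 in EQ-75%, and MCAM to 0.332 by that variance. By coding length CD34 took place 1 and CD164 place 2 in EC, and PODXL place 2 and MCAM place 3 in TB. The cause of these moves was not tested.

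The labels number the cells alike in each experiment and state that the same cDNA was reused, so the repeats were also paired within cells (the replicate block). PODXL in TB then had a mean log2 of 0.069 between EQ-Vary and EQ, against -0.70 unpaired; the other 19 values stayed within the spread between cells. EC and TB are different cells and were not paired.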
